A study of Mus musculus with 2 samples.

Results

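The genes of glucose uptake, glycolysis, the pentose phosphate pathway and lactate production were read in P5424, a mouse T-cell line, by taking every array probe that carries the name of 1 of 52 listed genes. All 52 genes were on the array, under 74 probes of 60 bases, out of 20061 names of protein-coding genes there. The series holds 1 group of 2 samples, P5424 replicates 1 and 2, each on its own one-colour mouse expression array. Per the labels, the cells were a Rag2 and P53 knockout, received no treatment and were kept in RPMI1640 medium to which serum (fetal bovine) and 2-mercaptoethanol were added, and their total RNA was labelled with Cy3. The Rag2 and P53 knockout is shared by both samples, the material is 1 cell line, and there is no second condition. No difference between conditions can therefore be tested. Nothing in the labels tells if the 2 samples were separate cultures. Their spread may therefore be only technical.

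Glycolysis splits glucose into pyruvate and yields ATP and NADH, and lactate dehydrogenase then turns pyruvate into lactate while restoring NAD+. The pentose phosphate pathway branches off at glucose 6-phosphate and makes NADPH and ribose for nucleotides. Proliferating T cells are known to run both, and most steps have several isozymes whose genes are used in different tissues.

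Every value below starts from the intensity of a probe after the scanner software's background correction. A level is log2 of that intensity minus log2 of the 75th percentile of all probes on the array, so 0 is a probe at that percentile, which was an intensity of 324 on replicate 1 and 299 on replicate 2. A gene was called detected if at least 1 of its probes was well above background on both arrays, by the scanner software's own flag. Its level is that of its brightest detected probe, given as mean ± SD over n = 2 arrays. The brightness of a probe depends on the probe as well as on the RNA, so isozymes are set beside each other by detection and not ranked by level.

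At each of the 18 steps examined, at least 1 gene was detected under the call used here. With a signal above the brightest negative control required, gluconeogenesis had 0, and with probes off the gene's chromosome left out, phosphoglycerate kinase had 0. Of the 52 genes, 39 (75%) were detected on both arrays, against 54.0% of all protein-coding genes. Slc2a2 and Gapdhs were detected on 1 array each, and 11 genes on neither: Slc2a4, Hk3, Pfkfb4, Pgk2, Pgam2, Pklr, Ldhc, Pdk4, Fbp2, Pck1 and Pck2. Genes with more probes have more chances to be detected. The share was 29 of 39 among members with 1 probe (47.6% of protein-coding genes with 1 probe) and 10 of 13 among those with more (66.9%). At 8 steps every gene was detected, at 10 steps detected and undetected isozymes stood side by side, and at 12 steps 2 or more genes were detected together.

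**Figure D1:**
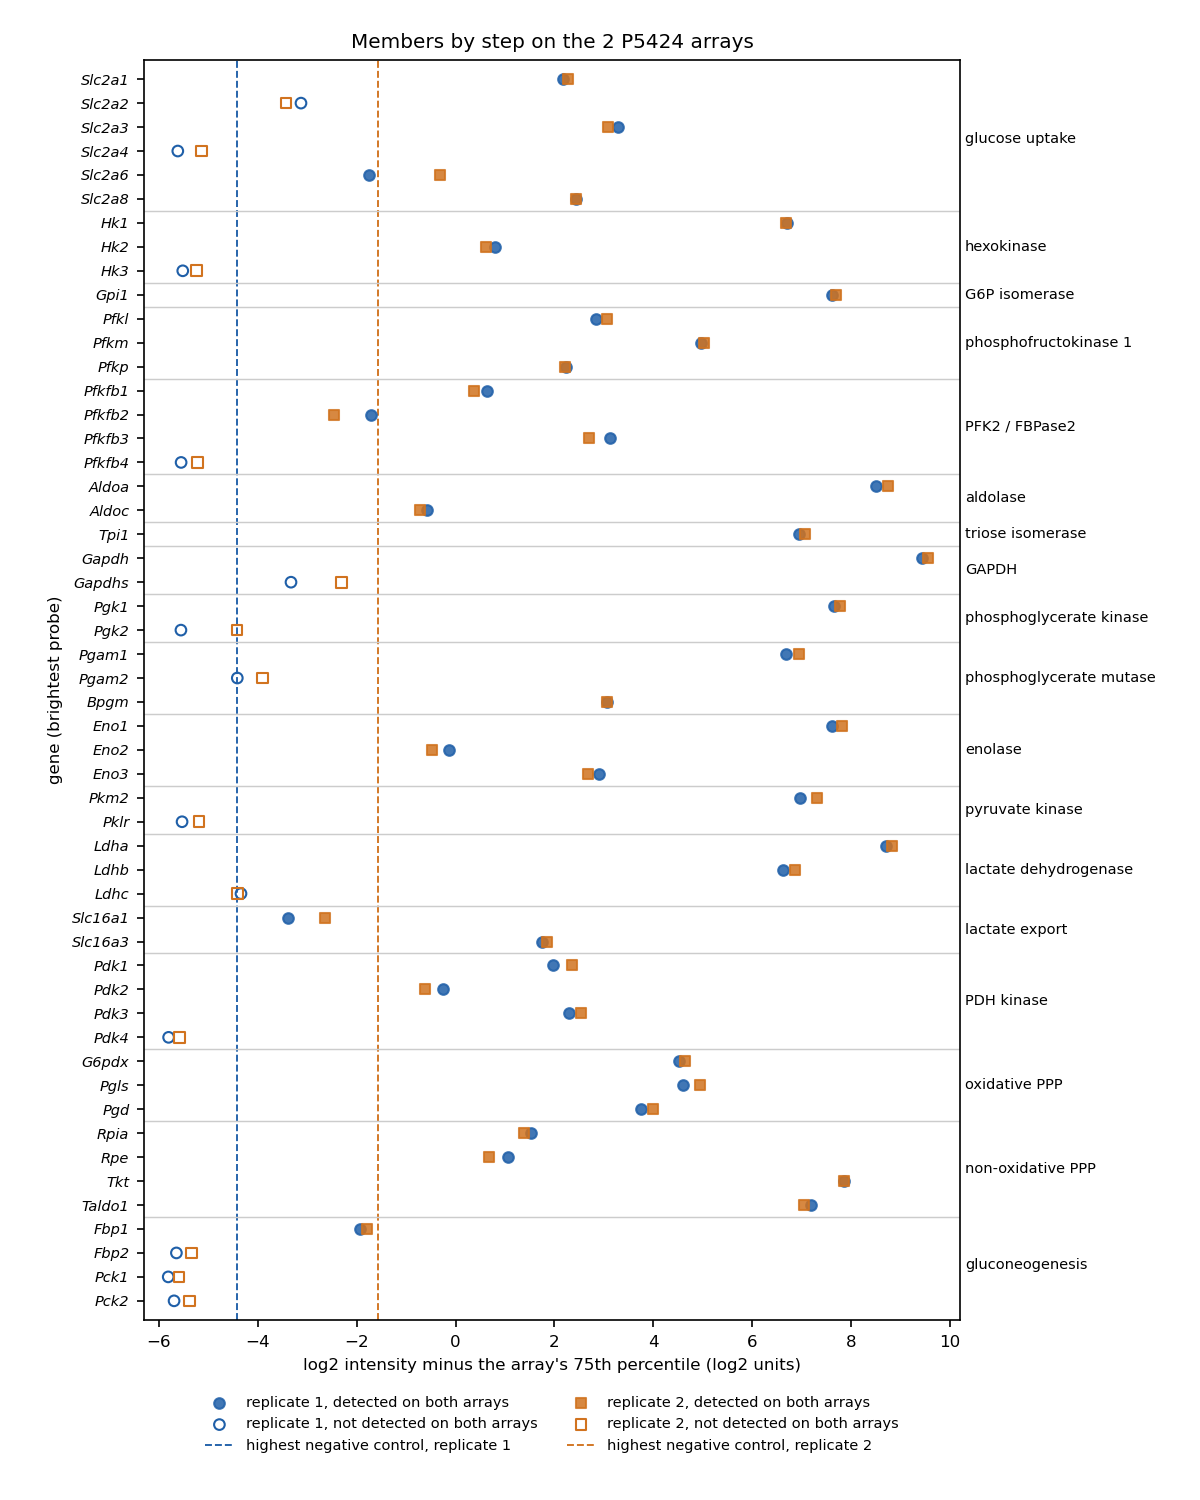
Level of the brightest probe of each of the 52 genes (log2 intensity minus the 75th percentile of the array) on replicate 1 (circles) and replicate 2 (squares), grouped by step. Filled marks are genes detected on both arrays (39) and open marks the other 13; the dashed lines are the brightest negative control spot of each array, and the mark of Hk1 is its probe placed on chromosome 5. Positions of different genes are not comparable, since probes differ in brightness.

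Across the array, 42.5% of 55680 probes were well above background on replicate 1 and 41.2% on replicate 2. The 308 negative control spots had median intensities of 6.55 and 7.50, and the brightest reached 15.1 on replicate 1 and 100.6 on replicate 2. The T-cell label was checked against its lineage markers, of which 12 of 12 were detected, among them the T-cell receptor chains Cd3e (level 8.31 ± 0.17), Cd3d (8.91 ± 0.06) and Cd3g (7.17 ± 0.03). Of the marker genes of other cell types, 0 of 5 were detected for skeletal muscle. For B cells, erythroid cells, liver, testis germ cells and fat it was 1 of 5 each. For myeloid cells it was 2 of 4, and for neurons and glia together 3 of 5. No spot of the 52 genes was saturated.

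The contrasts that follow turn on 3 sets of sequences. The first pair is the stretch that a probe of Ldha, the lactate dehydrogenase subunit found in most glycolytic tissue, shares with a probe of Ldhc, the subunit known from testis. Over 45 aligned bases without a gap the probes had 37 bases in common, and capitals mark the 8 that differ. The aligned stretches start at transcript base 985 of Ldha and 700 of Ldhc, inside probes at chr7:54107294-54107353 and chr7:54131104-54131163 (mm9, both on the plus strand).
Ldha: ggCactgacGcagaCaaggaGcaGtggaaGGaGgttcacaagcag
Ldhc: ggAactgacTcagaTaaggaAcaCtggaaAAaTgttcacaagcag
The Ldha probe gave 29538 and 40071 intensity units on replicates 1 and 2. The Ldhc probe gave 17.2 and 13.0 and was not well above background on either array. On both arrays the Ldha probe was thus well above background and the Ldhc probe was not, with 8 differences in 45 bases between them.

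The next sequences are the most upstream probes of 3 genes, shown whole and in lower case because the arrays differed more there than at the probes further downstream. They are Gapdh at transcript base 156 (chr6:125113312-125113371, minus strand), Ldha at base 351 (chr7:54103010-54103069, plus strand) and Tpi1 at base 634 (chr6:124761923-124761982, minus strand), all on mm9. No mm9 gene annotation was used here, so exons are not given.
Gapdh 156: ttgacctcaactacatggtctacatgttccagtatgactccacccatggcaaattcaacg
Ldha 351: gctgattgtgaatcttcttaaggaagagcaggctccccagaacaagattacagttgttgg
Tpi1 634: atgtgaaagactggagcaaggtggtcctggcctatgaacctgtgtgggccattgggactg

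The last sequences are the 250 bases upstream of the start of 4 genes, from RefSeq on GRCm38.p6, with each CpG dinucleotide in capitals. They are shown as 2 pairs in which the detected isozyme had more CpG than the undetected one, and were chosen with that difference known. Ldha (chr7:46845554-46845803, plus strand) and Pgam1 (chr19:41911621-41911870, plus strand) were detected. Ldhc (chr7:46861013-46861262, plus strand) and Pgam2 (chr11:5803797-5804046, minus strand) were not.
Ldha promoter: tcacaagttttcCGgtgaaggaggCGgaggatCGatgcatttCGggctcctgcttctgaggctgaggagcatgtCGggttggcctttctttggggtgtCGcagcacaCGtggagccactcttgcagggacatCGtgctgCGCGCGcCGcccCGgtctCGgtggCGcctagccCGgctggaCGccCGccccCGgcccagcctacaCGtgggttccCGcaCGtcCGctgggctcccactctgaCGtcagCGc
Ldhc promoter: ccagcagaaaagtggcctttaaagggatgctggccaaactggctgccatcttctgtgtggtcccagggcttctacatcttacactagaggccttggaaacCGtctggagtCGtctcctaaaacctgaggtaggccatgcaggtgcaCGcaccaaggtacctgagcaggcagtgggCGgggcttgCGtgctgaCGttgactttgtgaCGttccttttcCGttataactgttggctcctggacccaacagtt
Pgam1 promoter: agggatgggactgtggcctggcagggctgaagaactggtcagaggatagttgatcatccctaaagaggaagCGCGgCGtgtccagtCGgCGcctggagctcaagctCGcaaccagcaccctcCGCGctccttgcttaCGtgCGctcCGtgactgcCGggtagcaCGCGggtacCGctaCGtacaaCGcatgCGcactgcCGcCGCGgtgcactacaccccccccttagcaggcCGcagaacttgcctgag
Pgam2 promoter: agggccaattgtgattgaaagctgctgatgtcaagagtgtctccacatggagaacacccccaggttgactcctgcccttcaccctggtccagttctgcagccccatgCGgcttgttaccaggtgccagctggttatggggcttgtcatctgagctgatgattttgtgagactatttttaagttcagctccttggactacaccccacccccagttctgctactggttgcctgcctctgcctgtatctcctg
These 250 bases held 25 CpG in Ldha, 22 in Pgam1, 8 in Ldhc and 1 in Pgam2.

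Glucose enters the cell through transporters of the Slc2a family, and 4 of 6 were detected. Slc2a1, the transporter of basal uptake in most cells, gave intensities of 1469 and 1452 (level 2.23 ± 0.07). Slc2a3, a transporter of high affinity, gave 3155 and 2531. Slc2a8, which is held mainly inside cells, gave 1766 and 1607. Slc2a1 stood 224-fold and 194-fold above the negative control median of its array, and Slc2a3 and Slc2a8 were also well above background on both. Slc2a2, the transporter of liver and pancreatic beta cells, was called on replicate 1 only, at intensities of 37.1 and 27.7. Slc2a4, the insulin-responsive transporter of muscle and fat, has a probe printed in 10 spots, whose means of 6.61 and 8.49 were at the negative control median, and none of the 10 spots was well above background.

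Slc2a6, a transporter of lysosomal membranes and leukocytes, was the only gene of the 39 whose arrays stood more than 2-fold apart. Its probe at transcript base 2070 (chr2:26876891-26876950, mm9, minus strand) gave 96.3 on replicate 1 and 239.7 on replicate 2. After scaling to the 75th percentile of each array, the difference was 2.70-fold. A second probe at base 1202 was also higher on replicate 2, at 27.3 and 55.2, and was well above background only there. The probe at base 2070 lay below the 75th percentile of both arrays. Among all detected protein-coding genes, 0.526% were more than 2-fold higher on replicate 2 and 0.222% on replicate 1.

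Hexokinases phosphorylate glucose and so trap it, and 2 of 3 were detected. Hk1, the widely used form bound to mitochondria, was read by 3 probes, 2 of which are placed on the chromosome of the gene. The probe at base 3844 gave 8245 and 7662 (level 4.67 ± 0.01), and the one at base 2983 gave 500.5 and 600.6. A further probe named Hk1 is the brightest, at 33699 and 30626, but is placed on chromosome 5 while the gene is on chromosome 10. It shared 50 of 54 aligned bases with an unnamed probe and 31 of 33 with a probe of Rpl17, a ribosomal protein gene, so its signal cannot be assigned to Hk1 alone. Hk2, the form most often induced with growth, gave 564 and 458 (level 0.71 ± 0.13). Hk3, known from myeloid cells, gave 7.08 and 7.90 and was not well above background.

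Glucose 6-phosphate isomerase has the single gene Gpi1, whose 3 probes overlap, starting at transcript bases 1964, 1968 and 1969. The brightest gave 63681 and 61514 and the dimmest 45603 and 42694, and the scaled differences between arrays were 0.07 and 0.02 on the log2 scale.

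Phosphofructokinase 1 commits the sugar to glycolysis, and its liver, muscle and platelet subunits were all detected. Pfkl gave 2316 and 2478 (level 2.94 ± 0.15). Pfkm, known as the muscle subunit, has a probe printed in 10 spots, all of them well above background, with means of 10174 and 9711. Its spots scattered by an SD of only 0.03 and 0.05 within an array. Pfkp, the platelet subunit, was read at base 2138 with 1520 and 1392 and at base 3922 with 153.5 and 124.9. None of the skeletal muscle markers was detected beside Pfkm.

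Pfkfb enzymes make and remove fructose 2,6-bisphosphate, the activator of phosphofructokinase 1, and 3 of 4 were detected. Pfkfb3, the form with the strongest kinase activity, was read by probes at base 4726 (2818 and 1932) and at base 1426 (117.7 and 86.6), both lower on replicate 2. Pfkfb1, known from liver, gave 500.4 and 386.8. Pfkfb2, known from heart, gave 99.2 and 54.4, and its value on replicate 2 lay under the brightest negative control of that array. Pfkfb4, known from testis, gave intensities between 5.80 and 8.03 over 2 probes and was not well above background.

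Aldolase cleaves fructose 1,6-bisphosphate, and both members were detected. Aldoa, the form of muscle and most other cells, gave 117711 and 127450 (level 8.62 ± 0.16). Aldoc, known from brain, gave 216.2 and 182.1 (level -0.65 ± 0.09). The product is balanced by triose phosphate isomerase, Tpi1, whose probe at base 1204 gave 39666 and 40094.

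The lower part of the pathway, from glyceraldehyde 3-phosphate to pyruvate, had the form of most somatic cells called on both arrays, and the form known from germ cells, muscle or liver not, at 4 of its 5 steps. The count rests on the call: Gapdhs was called on replicate 2, Pgam2 has a positive and significant signal under the weaker flag, and the only Pgk1 probe is placed off the chromosome of the gene. Gapdh, the oxidising step that yields NADH, was detected by all 8 of its probes. The 5 placed on its own chromosome ran from 20565 and 31259 at base 156 to 191210 and 200746 at base 1164. Gapdhs, the sperm form, gave 32.3 and 60.3 at base 1397, where only replicate 2 was well above background, and 21.8 and 14.6 at base 1257. Pgk1, the first ATP-yielding kinase, gave 64856 and 65658, and Pgk2, its testis copy, gave 6.91 and 14.0 and was not well above background.

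Phosphoglycerate mutase moves the phosphate before enolase acts. Pgam1 gave 33506 and 36958 (level 6.82 ± 0.18), and Bpgm, which makes 2,3-bisphosphoglycerate and is best known from red cells, gave 2709 and 2492 (level 3.06 ± 0.00). Klf1 was the only 1 of 5 erythroid markers detected, at a level of -2.19 ± 0.05, and its part in the reading of Bpgm was not tested. Pgam2, the muscle form, gave 15.2 and 19.97 and was not well above background.

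All 3 enolases were detected. Eno1, the form of most cells, gave 63551 and 66757 (level 7.71 ± 0.13). Eno3, known from muscle, gave 2411 and 1919 (level 2.79 ± 0.15), while none of the muscle markers was detected. Eno2, known from neurons, gave 297.1 and 214.9 (level -0.30 ± 0.25). Among the listed markers of neurons and glia, Snap25 (level 4.01 ± 0.07), Syp (1.24 ± 0.00) and Tubb3 (-0.02 ± 0.16) were detected. Rbfox3 and the glial gene Gfap were not, and the part of other cells in the Eno2 reading was not tested.

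Pyruvate kinase makes pyruvate and the second ATP. Pkm2, an older name of Pkm, gave 40597 and 47616 (level 7.14 ± 0.25), and which splice form its probe reads was not determined. Pklr, the form of liver and red cells, gave 7.02 and 8.18 and was not well above background.

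Lactate dehydrogenase had 2 of 3 genes detected. Ldha gave 136068 and 135384 at its brightest probe, at base 1755 (level 8.77 ± 0.08). Ldhb, the heart-type subunit, gave 32124 and 34858 (level 6.75 ± 0.17). Ldhc was read by probes at bases 696 and 1071, with intensities from 13.0 to 17.2 on the 2 arrays, and neither probe was well above background. Ldha and Ldhb make the subunits that mix in somatic tetramers.

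Lactate leaves through monocarboxylate transporters. Slc16a3, the exporter of highly glycolytic cells, gave 1093 and 1069 at its brighter probe (level 1.80 ± 0.06). Slc16a1, which carries lactate both ways, was faint: 31.0 and 48.2, detected on both arrays but under the brightest negative control of replicate 2. Their partners Bsg and Emb, which bring these transporters to the membrane, were both detected.

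Pyruvate dehydrogenase kinases inhibit pyruvate dehydrogenase, and 3 of 4 were detected. Pdk1, a target of hypoxia signalling, gave 1275 and 1519. Pdk3 gave 1600 and 1726. Pdk2 gave 271.7 and 194.5 at its brighter probe. Pdk4, which is known to rise with fasting in muscle and liver, gave 5.81 and 6.24, at the negative control median.

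The pentose phosphate pathway was detected throughout, with 3 of 3 oxidative and 4 of 4 non-oxidative genes. In the oxidative branch, which makes NADPH, the rate-limiting G6pdx gave 7461 and 7485 (level 4.59 ± 0.09), Pgls 7818 and 9158 (level 4.77 ± 0.25) and Pgd 4383 and 4720 (level 3.87 ± 0.16). In the non-oxidative branch, which exchanges carbon with glycolysis, transketolase Tkt gave 74543 and 68910 (level 7.85 ± 0.00). Transaldolase Taldo1 gave 47389 and 39192. Rpia and Rpe, which interconvert the pentose phosphates, gave 932.7 and 776.2, and 678.7 and 477.7. The transketolase-like genes Tktl1 and Tktl2 were detected on neither array.

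Gluconeogenesis runs the pathway backward through its own enzymes, and here 1 of 4 was detected. Fbp1, known from liver, gave 84.98 and 85.97 (level -1.86 ± 0.10), which on replicate 2 was under the brightest negative control. Fbp2, Pck1 and Pck2 gave intensities between 5.78 and 7.37, and none was well above background. Among liver markers, Alb, Apoa1, Ttr and Cyp2e1 were detected on neither array and Tat was faint, at a level of -2.80 ± 0.52.

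Other genes of the pathway were read from a list of 67 on the array, of which 52 were detected on both arrays, Pgm1 on 1 and 14 on neither. Of all protein-coding genes, 54.0% were detected on both arrays. All 7 listed genes of the malate-aspartate and glycerol phosphate shuttles were detected, from Gpd1, Gpd1l and Gpd2 onward. These shuttles carry the reducing power of glycolytic NADH into mitochondria. On replicate 2, Gpd1 (60.1) and Gpd1l (98.2) lay under the brightest negative control. Also detected were 11 of 12 genes of pyruvate entry and pyruvate dehydrogenase, with the testis subunit Pdha2 as the exception. Of the regulators, 11 of 12 were detected, with Ppargc1a as the exception. Of 15 genes of glycogen and glucose phosphate, 12 were detected, Pgm1 was called on 1 array, and Pygl and G6pc were on neither. Of 10 further genes of transport and entry, only 4 were detected and 6 were on neither array. Slc2a9, Slc2a12 and Adpgk were among those detected, with Slc2a9 (59.6) under the brightest negative control of replicate 2. On the lactate side, Slc16a7 and Slc16a8, further monocarboxylate transporters, were not detected.

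Of the 39 detected genes, Slc16a1, Pfkfb2 and Fbp1 lay under the brightest negative control of replicate 2, as did 10.4% of detected protein-coding genes. Over the 39 genes, the median size of the difference between arrays was 0.19 on the log2 scale (0.16 over protein-coding genes).

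The difference between the arrays changed along the transcripts of several members. The differences given here are of scaled log2 values, while the intensities beside them are unscaled. For Ldha, intensity went from 3758 on replicate 1 to 6039 on replicate 2 at base 351, a scaled log2 difference of 0.80. At base 970 it went from 29538 to 40071, a scaled difference of 0.56. At base 1755 the arrays were almost level, at 136068 and 135384, and the scaled difference was 0.11. The reading of replicate 2 relative to replicate 1 thus fell over these probes, from the 5′ toward the 3′ end. The probe at base 1755 is similar to an unnamed probe on chromosome 4, so its reading may include a copy.

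Gapdh showed the same order. After scaling, its probes on chromosome 6 were higher on replicate 2 by 0.72 at base 156 and 0.70 at base 239. The values were 0.57 at base 391, 0.28 at base 897 and 0.19 at base 1164. The base 897 probe is placed on the genome at chr6:125111848-125111866, shorter than the probe and 3′ of the base 1164 probe (chr6:125111878-125111937). Its place in the order therefore rests on its transcript base alone. For Tpi1 the scaled difference was 0.66 at base 634, where unscaled intensities were 6781 and 9859, and 0.13 at base 1204. Hk1 differed by 0.38 at base 2983 and 0.01 at base 3844, and for Pfkp the values were -0.01 at base 2138 and -0.18 at base 3922. In the 5 genes with detected end probes at least 250 bases apart under 1 transcript accession, the upstream probe was the one relatively higher on replicate 2, by 0.69 for Ldha, 0.53 for Gapdh, 0.52 for Tpi1, 0.37 for Hk1 and 0.17 for Pfkp. Slc2a6, whose upstream probe was detected on 1 array only, had the opposite order under 1 accession, with 1.13 at base 1202 and 1.43 at base 2070. The probes of Pfkfb3 and Pdk2 carry different accessions. For Pfkfb3 the values were -0.33 at base 1426 and -0.43 at base 4726, in the same order, and for Pdk2 -0.43 at base 1759 and -0.36 at base 2106, in the opposite order. A scaling constant cancels in such a difference between probes.

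**Figure D2:**
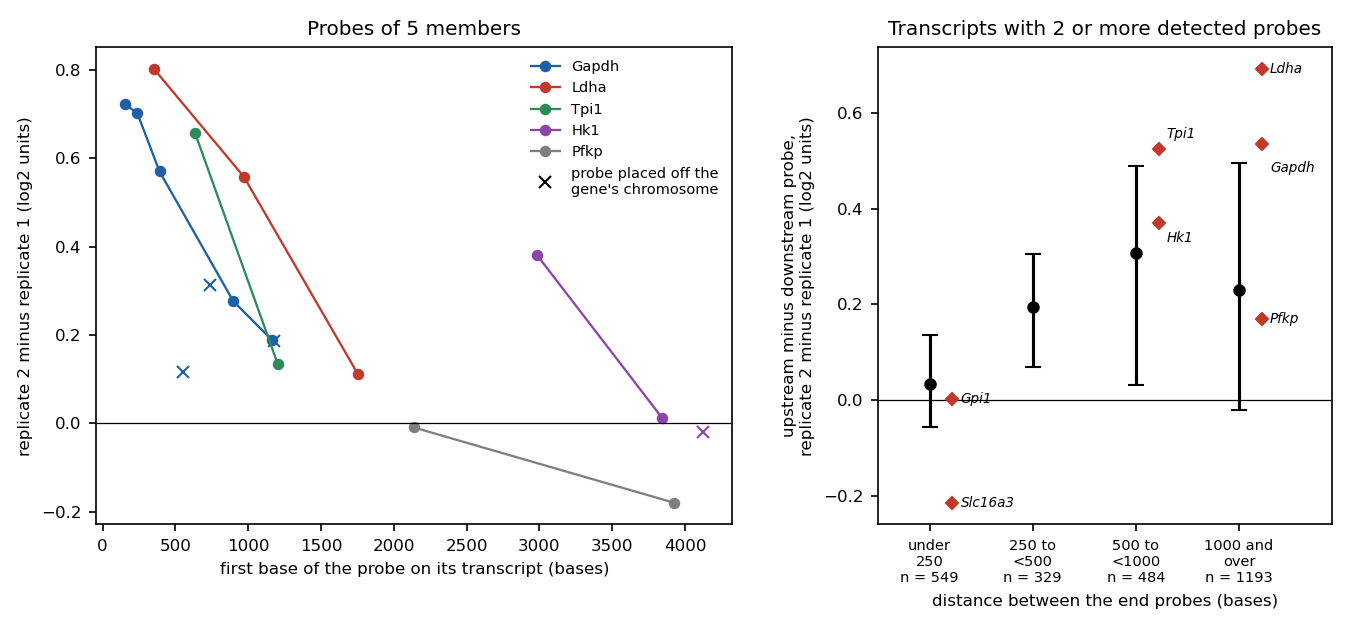
Left, replicate 2 minus replicate 1 (log2 units) of each detected probe of Gapdh, Ldha, Tpi1, Hk1 and Pfkp against the first base of the probe on its transcript; lines join the probes on the gene's own chromosome and crosses are probes placed elsewhere. Right, the upstream minus the downstream value of that difference for all transcripts with 2 or more detected probes, by the distance between the end probes, with the median (points) and quartiles (bars), and diamonds for the 7 listed genes with such pairs: the medians are 0.03, 0.19, 0.31 and 0.23 from the nearest to the farthest class.

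The same order was found in other transcripts. Over the array, the upstream probe was relatively higher on replicate 2 in 82.7% of 329 transcripts whose end probes lay 250 to under 500 bases apart, in 77.5% of 484 at 500 to under 1000 bases and in 73.4% of 1193 at 1000 bases or more. Below 250 bases the share was 61.2% of 549. Base composition moved with it: probes with 55% GC or more had a median of 0.14 higher on replicate 2, and probes under 35% GC a median of -0.24. Among 941 transcripts whose end probes differed by at most 5 percentage points in GC and lay at least 250 bases apart, the share was 70.4% and the median 0.18. The upstream and downstream probes had 45% and 43.3% GC for Ldha, 45% each for Gapdh, 55% and 53.3% for Tpi1, 55% and 41.7% for Hk1, and 45% and 40% for Pfkp. Differences in RNA quality and in the extent of labelling between the samples were not tested.

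For members with 1 probe, the part of probe place in the difference between arrays was not tested. Of the 39 detected genes, 23 were higher on replicate 2 and 16 on replicate 1, and the median of replicate 1 minus replicate 2 was -0.09, beside 0.03 over detected protein-coding genes. As a share, 59.0% of members and 43.6% of detected protein-coding genes were higher on replicate 2. The split moves with the scaling constant, which shifts all genes alike. With each array scaled to its median, 9 members (23.1%, beside 15.3% of protein-coding genes) were higher on replicate 2. With no scaling there were 16 (41.0%, beside 25.5%), and with the percentile taken over detected probes 27 (69.2%, beside 50.4%).

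Several probes cannot separate a member from its near copies. Of the 74 probes, 6 are placed on a chromosome other than that of the gene: 3 of Gapdh, 1 of Hk1, and the only probes of Pgk1 and Eno1. The Pgk1 probe is identical over 53 bases to a probe of Gm5537, which gave 48669 and 48030. The Eno1 probe shared 56 of 57 bases with a probe of Gm5506, at 59311 and 57872. For Gapdh, 30 probes under other names were similar to its own, and 29 of them were detected. The Ldhb probe is identical over 55 bases to an unnamed probe on chromosome 19. The Ldha probe at base 1755 shared 46 of 49 bases with an unnamed probe on chromosome 4, at 115711 and 127559. The readings of Pgk1, Eno1, Gapdh, Ldhb and Ldha at base 1755 are therefore of those sequences together with any copy that carries them.

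Promoters set the detected genes beside the undetected ones by a feature that the arrays did not measure. RefSeq promoter windows, from 250 bases before to 50 after a start, were matched by symbol for 50 of the 52 genes. A window was called CpG-rich if its ratio of observed to expected CpG exceeded 0.6 and its GC content 50%, and a gene if any of its windows was. Of 38 detected genes, 32 had such a promoter (84.2%), and of the 12 others only Pfkfb4 did (8.33%). Over all protein-coding genes the shares were 73.4% of those detected and 24.9% of the rest.

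**Figure D3:**
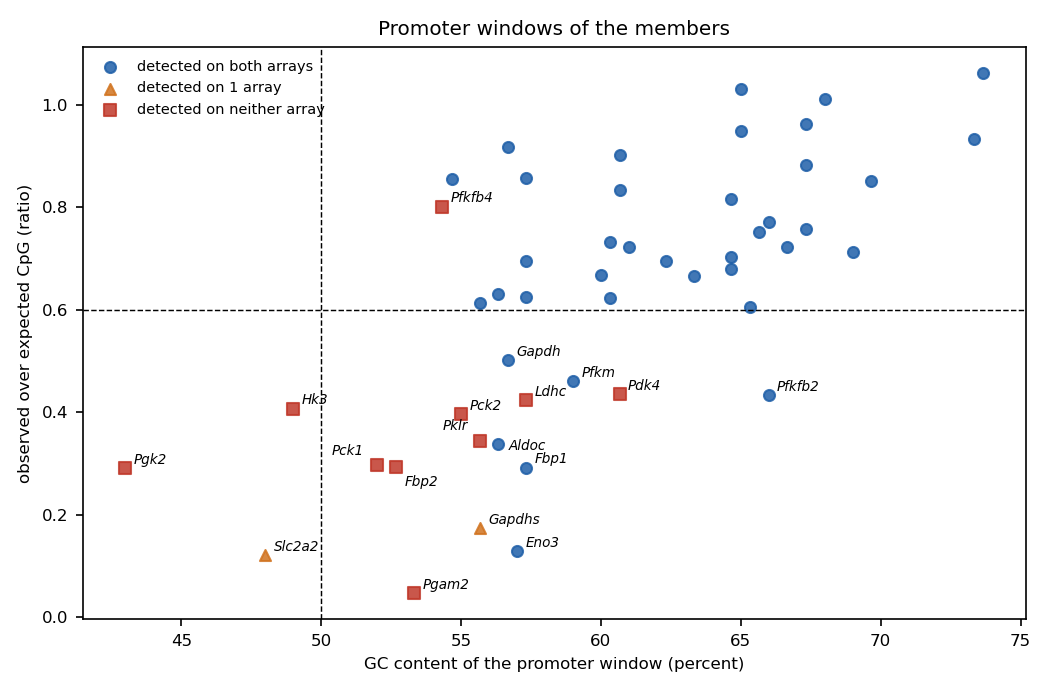
Highest ratio of observed to expected CpG against highest GC content (percent) over the promoter windows of each of 50 of the 52 genes. For a gene with several windows, the ratio and the GC content can come from different windows. Dashed lines mark 0.6 and 50%; 32 of 38 genes detected on both arrays (circles) lie above both lines, and of the 12 others (triangles and squares) only Pfkfb4 does.

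The median ratio was 0.72 in detected genes and 0.32 in the others. Over all protein-coding genes it was 0.80 and 0.31, so the detected members lay below detected genes in general. Within the isozyme families, Ldha stood at 0.88 and Ldhc at 0.42, and Pgam1 at 0.95 and Pgam2 at 0.05. The order was not the same in every family: undetected Pfkfb4 stood at 0.80, above detected Pfkfb1 at 0.73 and Pfkfb2 at 0.43, and Fbp1 and Fbp2 were both at 0.29. The detected genes without a CpG-rich window were Pfkm, Pfkfb2, Aldoc, Gapdh, Eno3 and Fbp1. Of these, Gapdh was at 0.50 and Eno3 at 0.13, and both genes were detected. The motif ACGTG, searched on both strands and contained in CACGTG, was in the windows of 18 of 38 detected genes (47.4%) and 3 of 12 others (25%), beside 29.7% and 17.6% of all protein-coding genes. CACGTG itself was in 6 of 38 (15.8%) and 1 of 12, beside 11.95% and 6.44% of all protein-coding genes. It was present in the windows of Pfkm, Pfkfb2, Pfkfb3, Ldha, Slc16a1 and Pdk2 among the detected genes. TATAAA was found in 3 of 38 and 1 of 12, namely Slc2a1, Pfkfb1, Eno2 and Pklr, beside 8.34% and 21.3%. A match says that these letters stand in the window and nothing about a factor.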

How the data were processed

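Intensity and the flags of each spot (other values, 0 or 1) came from the deposited scanner files of 2 arrays, made per the file headers with Agilent Feature Extraction, version 10.5.1.1 per the submitters' processing notes. Its processed intensity is background-subtracted and detrended within an array and not scaled between arrays, per the file headers. The deposited table of log2 values has column medians of 5.18 on both arrays and served as an alternative. Probe positions are on mm9, per the file headers.

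Control spots, and 182 and 186 spots flagged as outliers, were left out, spots of 1 probe were averaged, and log2 intensity was set relative to the 75th percentile of the array. A probe was detected if at least 50% of its spots were well above background on both arrays. With 1 group of 2 arrays no test was made, and the number of arrays limits the precision.

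The genes and lists were chosen with earlier results of these data known. All members are named. Of other lists, genes of the smaller class of a group were named up to 5, otherwise the first 3. This was not done for markers of B cells, myeloid cells, testis germ cells and fat, which were only counted. Any other named gene was chosen after its values were seen. A gene of these lists is not reported here. Symbols came from RefSeq (GRCm38.p6), with 51 matched directly and Pkm2 by synonym. Probes were compared with blastn 2.17.0, word size 11. The scripts ran in Python 3.11.15 and R 4.3.3 with limma 3.58.1 for normexp, and were tested on simulated data. Alternatives changed the detection rule, scaling, background correction and probe summary, and left out each array.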

Additional observations from a re-analysis of the deposited data

How the results depend on the processing

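The count of detected members was 39 and ran from 35, above the brightest negative control of either array, to 43, with the weaker flag of a positive and significant signal. It was 40 on either array alone. The detected share of all protein-coding genes was not computed under these other rules. Slc2a6, Slc16a1, Pfkfb2 and Fbp1 were lost under the strictest rule, which left gluconeogenesis with 0, and Slc2a2, Gapdhs, Pgam2 and Ldhc gained under the weakest. Slc2a6 was the 1 member over 2-fold apart in every scaling tried, from -1.03 with normexp to -1.47 with the percentile over detected probes (replicate 1 minus replicate 2). The median of replicate 1 minus replicate 2 was -0.09 and moved to 0.14 with the array median, under which the median over protein-coding genes moved alike, from 0.03 to 0.26. Less that of protein-coding genes it was -0.12, and -0.09, -0.08 and -0.10 with quantile scaling, normexp and the authors' deposited table, while a scaling constant cannot change it. Under these same alternatives the upstream probe of the 5 genes was relatively higher on replicate 2 by 0.04 (Pfkp, normexp) to 0.83 (Ldha, the authors' deposited table); scaling by a constant leaves this difference as it is. With the 250 upstream bases alone, CpG-rich promoters numbered 26 of 38 detected members and 0 of the 12 others. The share over all protein-coding genes was not computed for that window. Leaving out probes off the gene's chromosome, an alternative chosen after seeing the data like the promoter and probe-place ones, left 37 detected, with no probe for Pgk1, and so 0 detected at that step, or for Eno1 and a level of 4.67 for Hk1 in place of 6.69. No reversal was found, but reversal was counted only for a member over 2-fold apart, so this covers Slc2a6 alone. Other members changed direction with the scaling: 9 were higher on replicate 2 with the array median and 27 with the percentile over detected probes. No paired analysis was possible because there is only 1 group. The signal of Slc2a2, Gapdhs, Pgam2 and Ldhc is too near background to give a level.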

Other observations

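Outside the 52 genes, Mdh1, the cytosolic malate dehydrogenase of the malate-aspartate shuttle, gave 5573 on replicate 1 and 11066 on replicate 2, and Txnip, a brake on glucose uptake, gave 1057 and 510.6. Among regulators, Myc gave 8758 and 7524 and Hif1a 1408 and 1318, so these transcription factors were detected at nearly equal values on both arrays. Basigin, Bsg, which escorts lactate transporters, gave 5688 and 7829. These genes were chosen after their values were seen, and each value is that of 1 probe on 2 arrays.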
